A study of Mus musculus with 10 samples.

Results

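The genes described here are 45 parts of the motile cilium and its axoneme, the microtubule core that makes a cilium beat. They were listed by name, as known parts of that structure and genes of ciliated airway cells, with earlier results of these data known. All 45 were found among the 45786 genes of the deposited tables, and all 45 passed the filter on low counts. Transcripts had been sequenced from whole lung cell suspensions of C57BL/6J mice, an inbred laboratory strain. The thorax of one set of mice had received γ-radiation at 12.5 Gy, and age-matched control mice had received 0 Gy. Each set was sampled at 24 hours and at 1, 4, 12 and 32 weeks, with 1 library for each time and treatment, made from RNA pooled from 3 mice, so there were 5 control and 5 irradiated pools. The labels give neither the age in weeks nor the sex of the mice, and no 2 pools share both a time and a treatment.

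Motile cilia stand in tufts on the ciliated cells of the airway lining and move mucus out of the lung. In the axoneme, a ring of microtubule doublets surrounds a central pair of single microtubules. Outer and inner dynein arms slide the doublets against each other, while radial spokes, the central pair apparatus and the nexin-dynein regulatory complex set when and where they do so. The genes for these parts are switched on together in ciliated cells by the transcription factor Foxj1 and by factors of the RFX family, which bind the X-box, a sequence found in promoters of cilium genes.

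The X-box is shown here because it is a feature that the choice of members did not use. RefSeq promoter windows of build GRCm38.p6, running from 250 bases before to 50 bases after an annotated transcription start, were present for 37 of the 45 genes. The X-box was searched on both strands as GTNNCC, then 3 bases of any kind, then GNAAC, and 6 of the 37 genes (16.2%) held it, against 2.49% of all 27025 genes with such a window. The 6 were Spag16, Hydin, Cfap44, Tekt4, Zmynd10 and Spag6l. Sites of 5 of them are printed 5′ to 3′ along the gene's own strand, which is the plus strand in each, with the motif in capitals:
Spag16, chr1:69826859-69826888: ggcaacgcGTTGCCGTAGTAACtgcggacg
Hydin, chr8:110266948-110266977: actctgcgGTTGCTGTGGCAACagatggta
Cfap44, chr16:44394764-44394793: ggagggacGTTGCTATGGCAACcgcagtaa
Tekt4, chr17:25471422-25471451: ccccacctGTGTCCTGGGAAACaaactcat
Zmynd10, chr9:107547296-107547325: gctccctcGTTTCCATGGCGACgacgactc
The first capital lies 103, 21, 27 and 160 bases upstream of the start in Spag16, Hydin, Cfap44 and Tekt4, and on the first transcribed base in Zmynd10. The letters match on the strand shown in Spag16 and Tekt4 and on the opposite strand in Hydin, Cfap44 and Zmynd10. The shorter RFX half-site GTTGCC, which can lie inside an X-box, was found in 18 of the 37 genes (48.6%) and in 14.1% of all genes. The forkhead motif TGTTTAC was found in 2 of the 37 (5.41%) and in 4.05% of all genes. A match describes letters in a window and does not show that a factor binds there.

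Library depth was estimated as the deposited total divided by the value of 1 fragment, inferred from the spacing of low values. Of these, 78.7% to 82.1% lay near whole multiples of it. Estimated depth was 8679551 to 17325086 fragments in the controls and 12713382 to 17473108 in the irradiated pools. By this estimate the shallowest library was the 12-week control. The deposited totals ran from 9983710 in the 32-week control to 13509769 in the 32-week irradiated pool. The labels name no molecular identifiers, and PCR copies count as fragments. Values are given below as CPM, which are counts relative to the library total after TMM scaling, in the order 24 hours, 1, 4, 12 and 32 weeks. A matched difference is the log2 CPM of an irradiated pool minus that of the control of the same time, and as 1 pool against 1 pool it has no test. Levels of different genes are compared only on the deposited FPKM scale, which is per length.

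The list was set beside ciliated cell markers, of which 7 of 13 are themselves among the 45. The rest are also in the list of further axoneme, assembly and ciliated cell genes read below. This is therefore no independent check of the label. All 13 were detected and tested. Per length, the most abundant members were Sec14l3 with a mean over the 10 pools of 347 FPKM, Tppp3 with 328 and Tmem212 with 72.3, all known from ciliated cells. The dynein heavy chains lay far lower, at 2.11 FPKM or less. They are not ranked among themselves, since the lengths behind their FPKM are uncertain, with 304 counts per FPKM for Dnah1, 74.9 for Dnah2 and 23.6 for Dnah7a. No member was at 0 in every pool. Of the markers outside the list, Dynlrb2, a dynein light chain, measured 36.6, 42.3, 79.3, 70.03 and 61.4 CPM in the controls and 26.03, 39.1, 79.3, 39.4 and 105 CPM in the irradiated pools. Fam183b, another gene of ciliated cells, measured 24.7, 27.00, 49.6, 35.8 and 43.5 CPM and 13.3, 24.9, 56.6, 29.5 and 89.9 CPM.

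Against the control of the same time, the cilium genes lay lower together at 24 hours and 12 weeks and higher together at 1, 4 and 32 weeks. At 24 hours 41 of 45 were below the matched control, with a median matched difference of −0.55, where 50.4% of the 15625 genes tested were below theirs. At 1 week 40 of 45 were above it and 5 below (median 0.55, 52.6% and 47.4% of all genes). At 4 weeks 37 were above it and 8 below (median 0.30, 53.2% and 46.8% of all genes). At 12 weeks 37 were below it (median −0.42, 50% of all genes below). At 32 weeks 43 were above it (median 1.12, 51.8% of all genes above), and the exceptions were Rfx3 and Dnah11. The medians over all genes tested lay within 0.03 of 0 at the 5 times. The full order of lower, higher, higher, lower and higher was met by 27 of 45 members and by 3.66% of all genes. Set against all 5 controls instead, the members' median differences were −1.22, −0.06, 0.86, −0.25 and 1.26 log2. The higher median at 1 week was thus seen only against the matched control. That control had the lowest mean log2 CPM over the members of the 5 controls, 3.72. In RNA from whole suspensions, fewer ciliated cells and less of these transcripts per cell cannot be told apart.

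**Figure D1:**
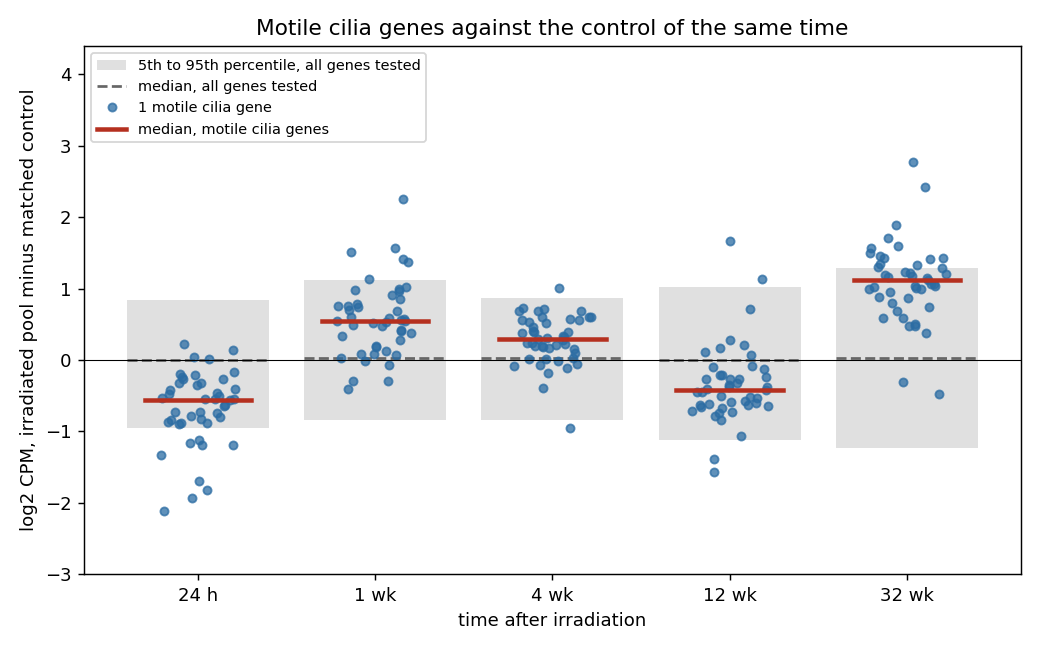
Matched log2 difference (irradiated minus control of the same time, log2 CPM) of each of the 45 genes at the 5 times, 1 point per gene, with the members' median as a red line. Grey bands run from the 5th to the 95th percentile of all 15625 genes tested, and dashed lines mark their median. The members' medians are −0.55, 0.55, 0.30, −0.42 and 1.12, each inside the band of its time.

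The controls also differed among themselves. The mean log2 CPM over the 45 genes was 3.86 and 3.72 in the controls of 24 hours and 1 week and 4.94, 4.53 and 4.52 in those of 4, 12 and 32 weeks, with an SD of 0.51 over the 5. In the irradiated pools it was 3.17, 4.31, 5.22, 4.18 and 5.61. The irradiated pools of 24 hours and of 32 weeks were thus the lowest and the highest of the 10, the 4-week one lay above every control, and those of 1 and 12 weeks lay inside the range of the controls. In 37 of 45 members the controls of 4, 12 and 32 weeks all exceeded those of 24 hours and 1 week, as did 10.8% of all genes. A trend of the controls with log2 days was called for 0 members (edgeR quasi-likelihood test, Benjamini-Hochberg adjusted, 0% of all genes called in either direction). At an unadjusted p under 0.05, 6 members had an upward slope (2.71% of all genes) and 0 a downward one (1.6%), and DESeq2 called 0 (0.128% of all genes called upward and 0.0384% downward). The smallest p among them was that of Cfap54, a central pair protein, whose controls measured 10.98, 8.35, 23.8, 23.9 and 20.1 CPM and whose slope was 0.17 ± 0.06 log2 per log2 day (SE, adjusted p = 0.998).

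**Figure D2:**
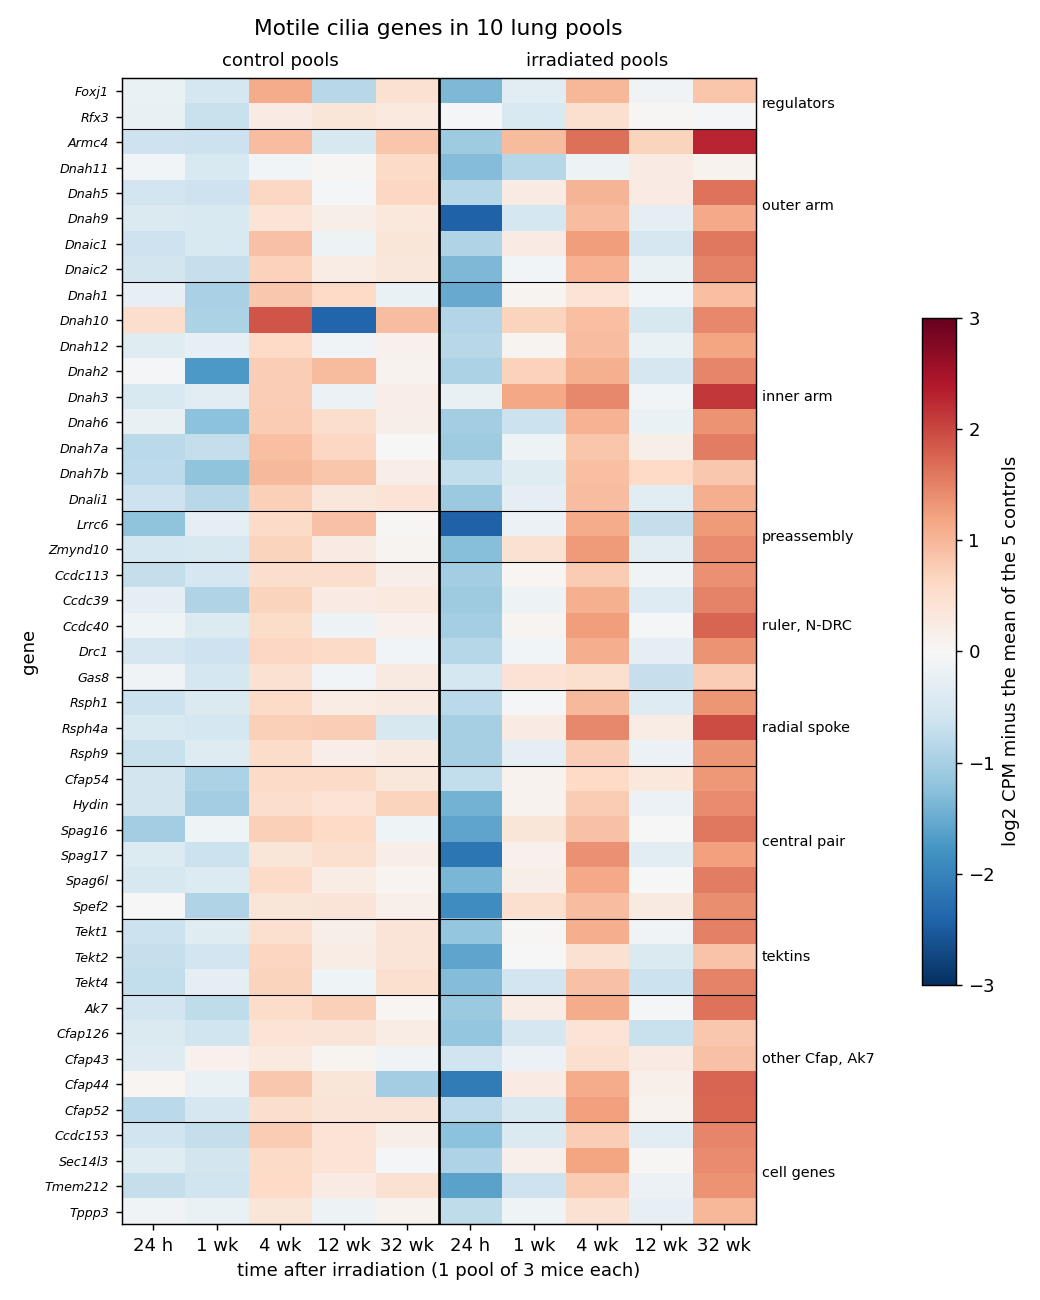
Log2 CPM of the 45 genes (rows, ordered by role) in the 10 pools (columns), as the difference from the gene's mean over the 5 controls (blue lower, red higher). The 24-hour irradiated pool is the lowest of the 10 for 36 genes (13.4% of all genes tested). The 32-week irradiated pool is the highest for 39 (16.7%).

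Set against all 5 controls, the 24-hour irradiated pool was the one in which the cilium genes were lowest. It lay below every control for 36 of 45 members, where 21.2% of all genes did so, and above every control for none of them. The quasi-likelihood test called 1 member lower, Dnah9 (0.454% of all genes called lower), and 0 higher (0.602%). At an unadjusted p under 0.05, 25 members were lower (6.27% of all genes) and 0 higher (5.61%). DESeq2 called 11 lower, and 2.07% of all genes. When the control of 1, 4, 12 or 32 weeks was left out, edgeR called 0 members lower (0.154%, 0.358%, 0.358% and 0.288% of all genes).

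At 32 weeks the order was turned. The irradiated pool lay above every control for 40 of 45 members, against 25.5% of all genes. The exceptions were the regulators Foxj1 and Rfx3 and the dyneins Dnah7b, Dnah10 and Dnah11. The test called 1 member higher, Ccdc40 (0.576% of all genes called higher), and 0 lower (0.25%). At an unadjusted p under 0.05, 33 were higher (9.43% of all genes) and 0 lower (6.92%). DESeq2 called 26 higher, and 3.4% of all genes. Without the 4-week control edgeR called 12 higher (1.47% of all genes), and without the control of 24 hours, 1 week or 12 weeks it called 0 (0.186%, 0.0384% and 0.422%).

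The 4-week irradiated pool exceeded all 5 controls for 37 of 45 members (19.1% of all genes). There edgeR called 0 members (0.0128% of all genes called higher and 0.0448% lower), and DESeq2 called 1 higher, Ccdc40 (0.262% of all genes). At an unadjusted p under 0.05, 18 were higher (4.15% of all genes) and 0 lower (3.05%). At 1 week the irradiated pool lay above every control for 3 members, Armc4, Dnah3 and Spef2 (22.6% of all genes), and below every control for Dnah9 and Dnah11 (18.8%). There edgeR called 0 members (0.0192% of all genes called higher) and DESeq2 0 (0.602% higher and 1.01% lower), and at an unadjusted p under 0.05 only Dnah3 was higher (5.04% of all genes) and 0 lower (4.45%). At 12 weeks it lay below every control for 3 members, Cfap126, Gas8 and Tppp3 (21.5% of all genes), and above every control for 0 (21.9%). No member was called there by edgeR or DESeq2 (0% of all genes by edgeR, 0.429% higher and 1.09% lower by DESeq2), and 0 reached an unadjusted p under 0.05 in either direction (4.95% of all genes higher, 5.73% lower). These 5 comparisons share their 5 controls, whose times span the whole course, so a difference in age between an irradiated pool and those controls cannot be told apart from irradiation.

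Over the 5 times together, with time as a block, 0 members were called (edgeR, 0% of all genes called in either direction), and DESeq2 called 0 (0.979% of all genes higher and 0.672% lower). At an unadjusted p under 0.05, 3 of 45 were higher, which is close to the 6.62% of all genes, and 0 lower (4.47%). These 3 were Armc4, Dnah3 and Dnah5. Only Dnah3 was higher in the irradiated pool at every time, as were 6.75% of all genes. A change of the difference along log2 days was called for 0 members by edgeR (0% of all genes), while DESeq2 called 1, Cfap44 (0.173%). At an unadjusted p under 0.05 8 members had an upward change (3.4% of all genes) and 0 a downward one (3.61%).

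Foxj1 encodes the forkhead factor that heads the motile cilium programme, and Rfx3 an X-box binding factor of motile and primary cilia. Foxj1 measured 16.9, 13.5, 41.8, 10.9 and 26.8 CPM in the controls and 7.69, 15.4, 38.6, 17.97 and 34.9 CPM in the irradiated pools. Its lowest pool was the 24-hour irradiated one and its highest the 4-week control, and apart from the 24-hour pool the groups overlapped. Its matched difference was −1.12 at 24 hours but only 0.38 at 32 weeks, and against all 5 controls these times gave −1.51 ± 0.68 and 0.67 ± 0.56 log2 (SE, edgeR adjusted p = 0.423 and 0.613). At 12 weeks the matched difference of Foxj1 was 0.72, set against the lowest of its 5 controls, and against all 5 it was −0.29 ± 0.61 log2 (SE, edgeR adjusted p = 0.895). Rfx3 measured 7.59, 5.59, 10.4, 11.3 and 10.7 CPM and 8.41, 6.46, 12.4, 8.99 and 8.67 CPM, and apart from the 4-week irradiated pool, just above every control, its irradiated pools lay among the controls. Its matched differences stayed between −0.32 and 0.24, without the dip at 24 hours or the height at 32 weeks that most members showed.

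The outer dynein arms give the beat most of its power. Dnah9 (GRCm38 chromosome 11, positions 65831282 to 66168551 of the minus strand), one of their heavy chains, gave 11.1, 10.9, 20.03, 16.9 and 18.8 CPM in the controls and 2.80, 10.4, 28.8, 12.3 and 32.9 CPM in the irradiated pools. The 24-hour irradiated pool was far below all others, the 1-week one just below the lowest control, and those of 4 and 32 weeks above every control, so that the groups overlapped at 12 weeks only. Against a control mean of 15.6 ± 4.27 CPM (SD, n = 5), Dnah9 fell at 24 hours by 2.47 ± 0.49 on the log2 scale (SE, edgeR adjusted p = 0.0471), with a level 3.81-fold lower than in the matched control. The call was lost (adjusted p = 0.0673, 0.0651, 0.0876 and 0.0764) when the control of 1, 4, 12 or 32 weeks was left out. On the opposite strand, exons of Gm12296 overlap 3.1% of its exon bases, and the library kit does not mark strand.

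Dnah11, the heavy chain of outer arms near the base of the cilium, stood apart from its partners. It measured 12.6, 9.81, 12.7, 13.7 and 19.9 CPM in the controls and 5.45, 7.38, 12.05, 15.9 and 14.3 CPM in the irradiated pools, highest in the 32-week control. The 24-hour and 1-week irradiated pools lay below every control, and the others overlapped with them. Opposite-strand exons of the protein-coding gene Cdca7l overlap 4.4% of the exon bases of Dnah11. The matched differences of Dnah11 were −1.19, −0.40, −0.08, 0.21 and −0.47, so that it showed no higher level at 32 weeks. At 1 week its difference from all controls was −0.90 ± 0.41 log2 (SE, edgeR adjusted p = 0.534).

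Dnah5, the other outer arm heavy chain, had matched differences of −0.26 at 24 hours and 1.00 at 32 weeks. Its 24-hour irradiated pool was the lowest of the 10, at −0.95 ± 0.51 log2 against all controls (SE, edgeR adjusted p = 0.519). Over the 5 times it differed by 0.46 ± 0.19 log2 (SE, edgeR adjusted p = 0.420, higher in 4 of 5 pairs). The intermediate chain gene Dnaic2 measured 16.6, 14.9, 39.3, 28.1 and 30.4 CPM and 9.53, 22.7, 49.7, 21.2 and 68.3 CPM. It was lowest in the 24-hour and highest in the 32-week irradiated pool, with the 4-week irradiated pool also above every control. Dnaic1, its partner, had matched differences of −0.27 at 24 hours and 1.20 at 32 weeks. Armc4, which holds outer arms at their docking sites, measured 5.61, 5.51, 16.6, 6.20 and 15.6 CPM in the controls and 4.17, 16.8, 27.2, 13.9 and 42.02 CPM in the irradiated pools. It lay below its control at 24 hours only, and the irradiated pools of 1, 4 and 32 weeks exceeded every control. Its difference over the 5 times was 0.93 ± 0.29 log2 (SE, edgeR adjusted p = 0.309, higher in 4 of 5 pairs).

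The inner arm dyneins shape the bend of the cilium. As a group of 9 they had matched medians of −0.47, 0.78, 0.21, −0.45 and 1.06, and all 9 lay above their control at 1 and at 32 weeks. Dnali1, an inner arm light intermediate chain, measured 17.8, 15.5, 45.1, 34.9 and 36.7 CPM in the controls and 12.8, 22.7, 52.3, 21.8 and 59.1 CPM in the irradiated pools. Its irradiated pools were below every control at 24 hours and above every control at 4 and 32 weeks. The heavy chain Dnah3 measured 2.72, 3.00, 6.15, 3.31 and 4.26 CPM and 3.20, 8.30, 10.1, 3.49 and 16.3 CPM. Irradiated pools of 1, 4 and 32 weeks exceeded every control, while those of 24 hours and 12 weeks lay among them. Its difference was 0.90 ± 0.32 log2 over the 5 times (SE, edgeR adjusted p = 0.365) and 2.06 ± 0.41 at 32 weeks against all controls (adjusted p = 0.057). Exons of the protein-coding gene Lyrm1 on the opposite strand overlap 10.5% of those of Dnah3.

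The heavy chains Dnah1, Dnah2 and Dnah10 were counted at low depth, with means of 64.4, 62.2 and 57.2 counts per library. Dnah1 measured 4.04, 2.43, 8.41, 7.22 and 4.17 CPM in the controls and 1.68, 5.03, 6.37, 4.49 and 8.90 CPM in the irradiated pools, lowest in the 24-hour and highest in the 32-week irradiated pool. Dnah2 measured 3.55, 1.14, 6.24, 7.13 and 3.98 CPM and 1.92, 6.04, 7.75, 2.63 and 10.3 CPM. Its matched difference of 2.25 at 1 week set an irradiated pool inside the range of the controls against the lowest control. Dnah10 measured 4.46, 1.62, 11.4, 0.594 and 5.93 CPM and 1.68, 4.95, 5.83, 2.25 and 8.51 CPM, with its lowest value in the 12-week control, so its matched difference of 1.67 there also came from a low control. Every irradiated pool of Dnah10 lay inside the range of its controls.

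Dnah7a and Dnah7b are related copies, and with Dnah7c they form a family whose reads may be divided between members. Of the 50-base stretches of the annotated transcripts of Dnah7a, 29.4% also occur in Dnah7b and 29.1% in Dnah7c, so their separate levels are uncertain. Dnah7b measured 2.39, 1.78, 8.06, 7.30 and 4.73 CPM in the controls and 2.48, 3.19, 7.67, 6.20 and 7.20 CPM in the irradiated pools, and its groups overlapped at every time. Dnah7a lay 2.83-fold above its matched control at 32 weeks. Dnah6 and Dnah12, the remaining heavy chains, had matched differences of −0.80 and −0.47 at 24 hours and of 1.15 and 1.06 at 32 weeks.

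Dynein arms are put together in the cytoplasm before they enter the cilium, and Zmynd10 and Lrrc6 work together in that step. Zmynd10 measured 10.7, 11.2, 24.8, 18.3 and 16.5 CPM in the controls and 6.41, 21.1, 37.6, 12.6 and 41.1 CPM in the irradiated pools. Lrrc6 measured 4.87, 9.24, 16.8, 20.8 and 11.6 CPM and 2.08, 10.1, 24.5, 6.90 and 27.4 CPM. Both lay below every control at 24 hours and above every control at 4 and 32 weeks, and overlapped with the controls at 1 and 12 weeks. The matched differences of Lrrc6 were −1.16 at 24 hours and −1.57 at 12 weeks, the latter the lowest of any member at that time. An antisense gene, Gm34106, overlaps 10.1% of the exon bases of Zmynd10.

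Ccdc40 and Ccdc39 form the ruler that spaces the repeating units of the axoneme. Ccdc40 (GRCm38 chromosome 11, positions 119228572 to 119265238 of the plus strand) measured 35.00, 28.5, 56.4, 34.5 and 41.97 CPM in the controls and 18.9, 40.3, 91.01, 37.4 and 127 CPM in the irradiated pools. The 24-hour irradiated pool was the lowest of the 10, those of 4 and 32 weeks were above every control, and those of 1 and 12 weeks overlapped with the controls. Against a control mean of 39.3 ± 10.7 CPM (SD, n = 5), Ccdc40 rose at 32 weeks by 1.70 ± 0.27 log2 (SE, edgeR adjusted p = 0.0313), and its level was 3.03-fold that of the matched control. This call was lost without the control of 24 hours (adjusted p = 0.0588), of 1 week (adjusted p = 0.0849) or of 12 weeks (adjusted p = 0.0566). At 4 weeks the difference was 1.21 ± 0.29 log2 (SE, edgeR adjusted p = 0.411; DESeq2 adjusted p = 0.0422). The change of its difference along time was 0.24 ± 0.07 log2 per log2 day (SE, edgeR adjusted p = 0.679).

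Ccdc39 had matched differences of −0.75 at 24 hours and 1.18 at 32 weeks, and the opposite-strand exons of Ttc14 overlap 16.9% of its exon bases. Drc1 and Gas8 belong to the nexin-dynein regulatory complex that links neighbouring doublets. Drc1 lay 2.67-fold and Gas8 1.39-fold above the matched control at 32 weeks. Ccdc113, another axonemal coiled-coil protein, measured 16.8, 19.3, 39.4, 39.4 and 30.9 CPM in the controls and 13.4, 28.6, 46.7, 25.4 and 71.2 CPM in the irradiated pools. It lay below every control at 24 hours and above every control at 4 and 32 weeks.

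**Figure D3:**
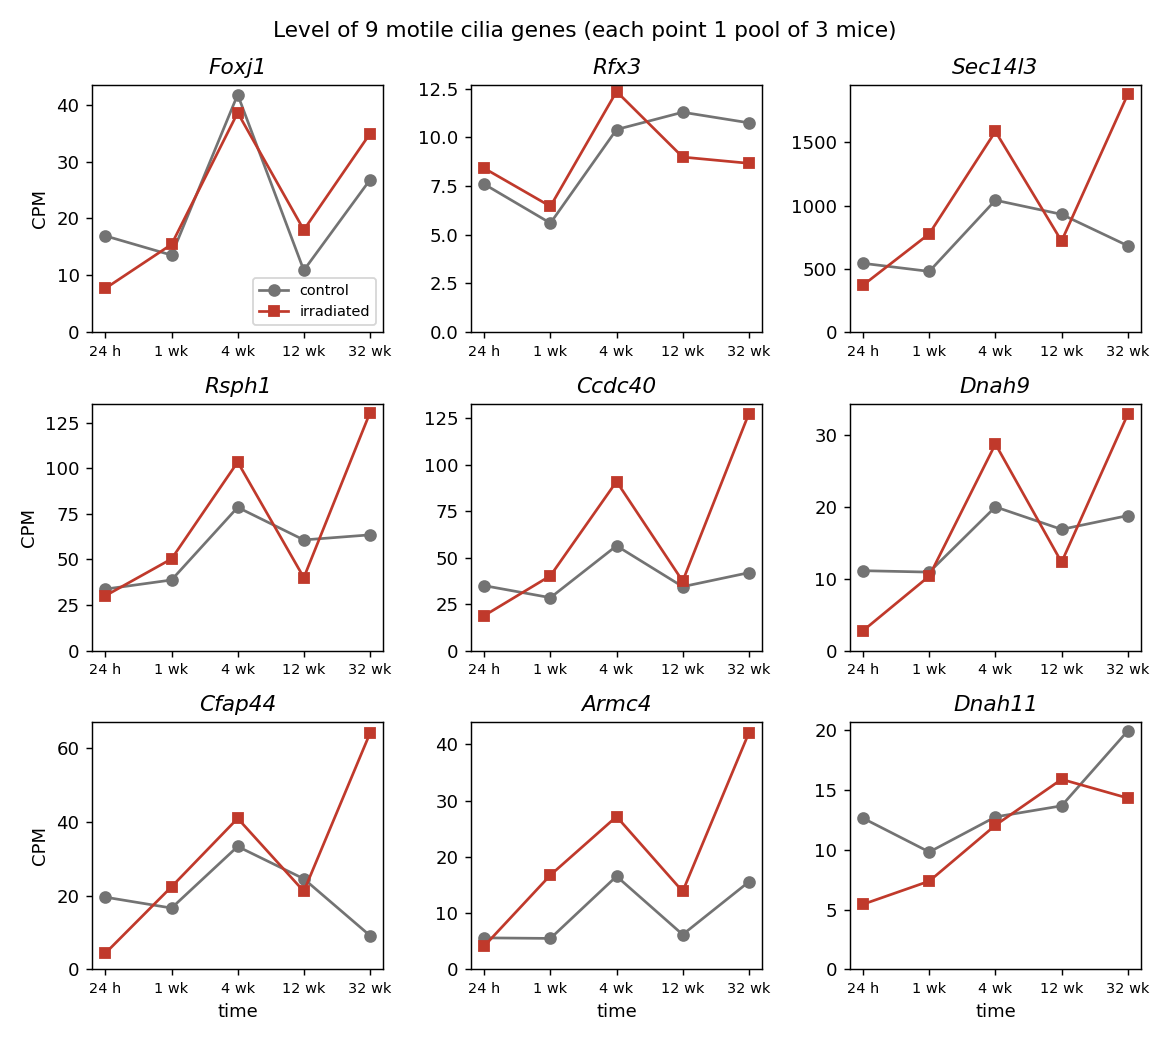
CPM of 9 genes by time, 1 point per pool (grey circles control, red squares irradiated), on linear axes that start at 0. Ccdc40 reaches 127 CPM in the 32-week irradiated pool, Dnah9 drops to 2.80 CPM in the 24-hour one, and Rfx3 and Dnah11 are not highest in the 32-week irradiated pool.

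Radial spokes carry signals from the central pair to the dynein arms, and Rsph1, Rsph4a and Rsph9 belong to the spoke head. Rsph1 measured 33.8, 38.8, 78.5, 60.7 and 63.5 CPM in the controls and 30.1, 50.3, 103, 40.1 and 130.3 CPM in the irradiated pools. Rsph4a measured 15.7, 14.9, 35.3, 35.4 and 15.3 CPM and 10.7, 25.4, 58.4, 24.9 and 82.7 CPM. Both were lowest in the 24-hour irradiated pool and above every control at 4 and 32 weeks. The 32-week matched difference of Rsph4a, 2.42, set the highest pool against a control lower than those of 4 and 12 weeks, and against all 5 controls it was 1.83 ± 0.44 log2 (SE, edgeR adjusted p = 0.0786). The matched differences of Rsph9 were −0.32 at 24 hours and 1.04 at 32 weeks.

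The central pair apparatus was represented by 6 genes. All 6 lay below the matched control at 24 hours and 12 weeks and above it at 1, 4 and 32 weeks, with medians of −0.85, 0.89, 0.39, −0.41 and 1.12. Spag6l measured 23.3, 24.6, 48.8, 38.2 and 34.7 CPM in the controls and 12.7, 36.97, 71.98, 33.00 and 94.03 CPM in the irradiated pools. Spag17 measured 8.42, 7.13, 14.3, 15.5 and 12.8 CPM and 2.48, 12.2, 28.9, 8.99 and 26.2 CPM, and Spef2 measured 13.7, 7.30, 17.4, 17.8 and 15.2 CPM and 3.76, 19.1, 25.9, 16.3 and 35.7 CPM. In all 3 the 24-hour irradiated pool was below every control and the pools of 4 and 32 weeks above every control. At 24 hours Spag17 was 3.24-fold and Spef2 3.53-fold lower than in the matched control. At 32 weeks the difference of Spag6l from all controls was 1.47 ± 0.32 log2 (SE, edgeR adjusted p = 0.0649). The remaining members, Hydin, Spag16 and Cfap54, had matched differences of 0.74, 1.70 and 0.96 at 32 weeks. Opposite-strand exons of Wdr3 overlap 9.7% of those of Spag17.

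Tektins form filaments inside the doublet microtubules. Tekt1 measured 17.8, 21.7, 39.01, 31.6 and 36.7 CPM in the controls and 12.5, 28.8, 59.5, 26.2 and 79.9 CPM in the irradiated pools. Tekt2 measured 10.1, 10.9, 25.1, 18.9 and 21.1 CPM and 5.37, 16.1, 22.1, 12.01 and 29.5 CPM, and Tekt4 measured 9.25, 12.6, 24.6, 14.1 and 21.7 CPM and 6.25, 10.3, 28.3, 9.84 and 43.6 CPM. All 3 were lowest in the 24-hour irradiated pool and highest in the 32-week irradiated pool. Tekt1 and Tekt4 also exceeded every control at 4 weeks, whereas the matched difference of Tekt2 was −0.18 there, and that of Tekt4 was −0.29 at 1 week. Exons of Gm12945 overlap 20.8% of the exon bases of Tekt2 on the opposite strand.

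Cfap44 and Cfap43 are axonemal proteins that work together. Cfap44 (GRCm38 chromosome 16, positions 44394796 to 44482428 of the plus strand) measured 19.6, 16.6, 33.3, 24.5 and 9.17 CPM in the controls and 4.41, 22.4, 40.9, 21.2 and 63.9 CPM in the irradiated pools. It had the lowest matched difference of any member at 24 hours, −2.11, and the highest at 32 weeks, 2.78. The 32-week control was the lowest of its 5 controls, and against all 5 the 32-week difference was 1.63 ± 0.44 log2 (SE, edgeR adjusted p = 0.106). The change of its difference along time was 0.48 ± 0.13 log2 per log2 day (SE, edgeR adjusted p = 0.679; DESeq2 adjusted p = 0.0115). Cfap43 measured 42.7, 60.97, 68.4, 59.8 and 52.3 CPM and 36.8, 49.6, 78.2, 67.1 and 104 CPM, below every control at 24 hours and above every control at 4 and 32 weeks.

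Cfap126, also called Flattop, acts in placing basal bodies. It measured 17.3, 15.4, 30.5, 30.5 and 26.8 CPM in the controls and 10.3, 16.2, 30.9, 14.5 and 40.2 CPM in the irradiated pools. Both the 24-hour and the 12-week irradiated pools lay below every control, with a matched difference of −1.06 at 12 weeks. Cfap52, a protein of the doublet lumen, and the adenylate kinase Ak7 had matched differences of 0.01 and −0.53 at 24 hours and of 1.35 and 1.56 at 32 weeks.

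Sec14l3, a lipid-binding protein of the SEC14 family found in ciliated cells, measured 544, 479.7, 1043, 931 and 683 CPM in the controls and 372, 777, 1587, 719.7 and 1879 CPM in the irradiated pools. The 24-hour irradiated pool was below every control, the 4-week and 32-week pools above every control, and the others among them. Tppp3, a tubulin-binding protein, was lowest at 24 hours and highest at 32 weeks, both in irradiated pools. Its difference from all controls at 32 weeks was 0.98 ± 0.21 log2 (SE, edgeR adjusted p = 0.0632). Tmem212 and Ccdc153 had matched differences of −0.89 and −0.63 at 24 hours and of 0.87 and 1.29 at 32 weeks.

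A wider list showed the same order of times in its medians. Of 133 further axoneme, assembly and ciliated cell genes 127 were tested, with matched medians of −0.46, 0.28, 0.19, −0.37 and 1.07. At 24 hours 108 of 127 lay below their control, as did 50.4% of all genes. Kif27, a kinesin, fell there by 2.75 ± 0.50 on the log2 scale against all 5 controls (SE). At 32 weeks 123 of 127 lay above their control, as did 51.8% of all genes. Ccdc181, Cfap300 and Cfap65 rose there by 1.43, 1.91 and 1.88 log2 against all 5 controls. The outer arm docking protein gene Ccdc114 rose by 1.86 ± 0.31 log2 (SE, edgeR adjusted p = 0.0338), and the dynein assembly factor gene Ccdc103 by 2.01 ± 0.39 (adjusted p = 0.0485).

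Genes that all cilia use had smaller medians. For intraflagellar transport, which carries cargo along cilia, and the BBSome, a coat for membrane proteins of cilia, 39 genes were tested. At 32 weeks 37 of them lay above their control (median 0.73, 51.8% of all genes). Ift172 rose by 1.06 ± 0.20 log2 (SE, edgeR adjusted p = 0.0485). At 24 hours 27 of the 39 lay below their control (median −0.18, 50.4% of all genes). For 26 tested genes of primary cilia, which do not beat, the medians were 0.03, 0.37, −0.02, −0.04 and 0.18 at the 5 times.

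A mixed list of multiciliation regulators and centriole amplification genes had medians nearer to 0. It also held Notch1, Notch2, Notch3 and cell cycle genes, while the regulators Mcidas and Gmnc did not pass the filter and were not tested. Of the 33 tested genes of this list, 20 lay below their control at 24 hours (median −0.15, 50.4% of all genes). At 32 weeks 19 did so (median −0.23, 48.2% of all genes). The matched differences ran from −2.01 to 1.04 at 24 hours and from −1.37 to 1.40 at 32 weeks. The cell cycle kinase gene Cdk1 is in that list but acts in all dividing cells. It fell at 24 hours by 1.91 ± 0.33 on the log2 scale against all 5 controls (SE).

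**Figure D4:**
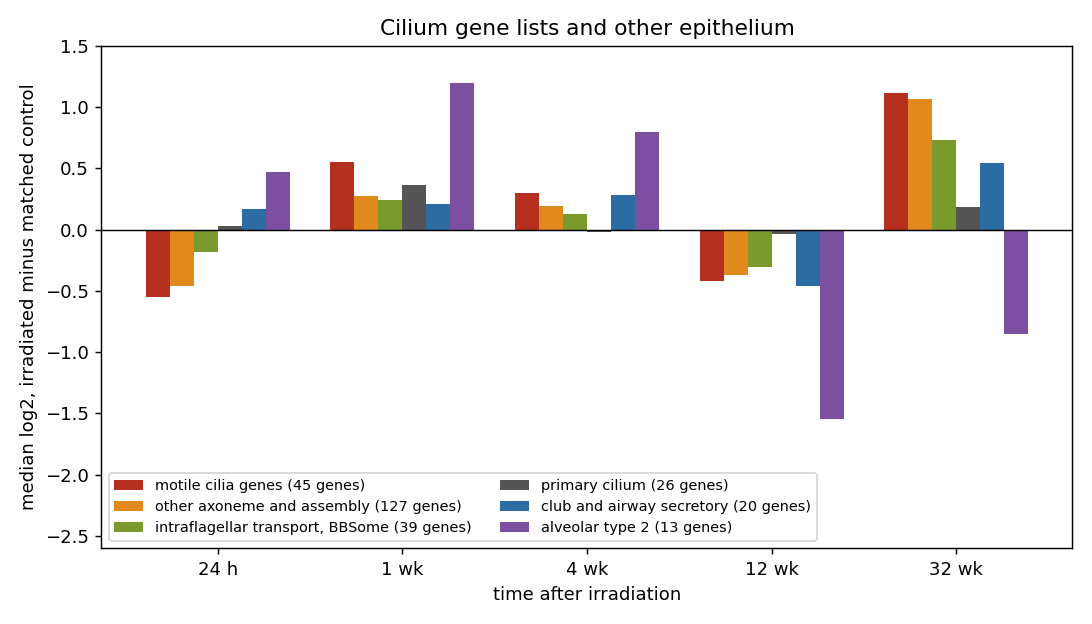
Median matched log2 difference (bars from 0) over the tested genes of 4 cilium lists and of the club and alveolar type 2 marker lists at the 5 times. The 45 genes and the 127 further axoneme, assembly and ciliated cell genes share the order of times. Their medians are 1.12 and 1.07 at 32 weeks, whereas alveolar type 2 markers are at −0.85 there.

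Markers of other airway and lung cells were read beside the members. Summed over 21 genes, club and airway secretory markers came to 7126, 6718, 17852, 11686 and 15434 CPM in the controls and 8237, 7412, 15267, 6125 and 24036 CPM in the irradiated pools. Like the members they were higher in the controls of 4, 12 and 32 weeks than in those of 24 hours and 1 week, and highest in the 32-week irradiated pool. Their matched medians over 20 tested genes were 0.17, 0.21, 0.28, −0.46 and 0.55. At 24 hours 11 of the 20 lay above the matched control and 9 below (49.6% and 50.4% of all genes). Against all 5 controls their median difference at 24 hours was −0.31 log2, and that of the 45 members was −1.22. Alveolar type 2 markers, 13 genes, had medians of 0.47, 1.20, 0.80, −1.55 and −0.85. Among them Abca3 and Etv5 rose at 24 hours, by 1.26 ± 0.19 and 1.25 ± 0.21 log2 (SE, edgeR adjusted p = 0.0157 and 0.0232). At 32 weeks Etv5 fell by 1.38 ± 0.25 and the surfactant protein gene Sftpc fell by 2.02 ± 0.35 on the log2 scale (SE, edgeR adjusted p = 0.0444 and 0.0411). Markers shared by all epithelium (13 tested) had medians of 0.28, 0.64, 0.47, −0.51 and 0.60, and Krt8 rose at 32 weeks by 1.14 ± 0.20 log2 (SE, edgeR adjusted p = 0.0411). Fibroblast markers had a median of −1.03 at 32 weeks. Dcn fell there by 1.89 ± 0.34 on the log2 scale against all 5 controls (SE). Haemoglobin genes had a matched median of 1.71 at 32 weeks, set against their lowest control. Their sum was 7514 CPM in that control, 17577 to 68764 CPM in the other controls and 22275 CPM in the irradiated pool. Against all 5 controls their median difference at 32 weeks was −0.65 log2. At 24 hours and 32 weeks the medians were 0.40 and −0.41 for 5 tested basal cell markers, 0.54 and −0.47 for 6 of neuroendocrine and tuft cells, and 0.17 and −0.05 for 12 of alveolar type 1 cells. They were 0.09 and 0.24 for 10 mesothelial markers and −0.13 and 0.16 for 9 of cardiac muscle. At 1 week the medians were 1.03 for alveolar type 1, 0.73 for mesothelial and 0.70 for neuroendocrine and tuft cell markers. Those of basal cells and cardiac muscle were −0.89 and −0.32. At 12 weeks these 5 lists, in the same order, had medians of −0.42, 0.46, 0.11, −0.19 and 0.16. No marker of these cell types was at 0 in every pool. The part of these cell types in the differences of the cilium genes was not tested.

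Scgb1a1, which encodes the main secretory protein of club cells, measured 3156, 2699.9, 11261, 6795 and 9521 CPM in the controls and 3043, 2702, 7372, 2946 and 15199.7 CPM in the irradiated pools. Its matched differences were −0.05 at 24 hours, −1.21 at 12 weeks and 0.67 at 32 weeks. The club cell genes Scgb3a2 and Cyp2f2 differed by −0.17 and −0.22 at 24 hours. For both, the 24-hour irradiated pool lay below every control. The 45 members had a median matched difference of −0.55 at 24 hours, with differences from −2.11 to 0.22.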

How the data were processed

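RNA was sequenced from 10 pools of 3 mice each. Per the labels' protocols, RNA was extracted with Qiagen RNeasy PLUS, and Clontech ultralow and Illumina NexteraXT kits made the libraries, a chemistry that does not mark strand. The submitters' processing notes name Cuffdiff, Cufflinks 2.0.2, STAR 2.4.2a and Trimmomatic 0.32 and build GRCm38.p4, with no role for any tool and no annotation. The deposited tables hold the authors' expected counts, on a scale common to the libraries, and FPKM. Symbols and coordinates came from GENCODE M21 (45223 of 45786 identifiers matched). Table columns that belong to no sample numbered 0.

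Expected counts were rounded and scaled by TMM over all 10 pools, with factors of 0.933 to 1.086. The 15625 genes passing filterByExpr (minimum count 10) were tested with 2-sided edgeR 4.0.16 quasi-likelihood tests in R 4.3.3, adjusted over all genes, at a threshold of 0.05. Models were treatment with time as a block (4 residual degrees of freedom), each irradiated pool against the 5 controls (4), treatment by log2 days (3) and the trend of controls with log2 days (6). A lone pool is assumed to vary like the controls. Matched differences used a prior count of 2. The p-values measure the spread between pools, with biological and technical spread not separated. The fits were tested on simulated data. DESeq2 1.42.0, limma 3.58.1 on log2(FPKM + pseudocount), other scalings, no filter and leaving out pools were alternatives.

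The 45 members and the other lists were chosen with earlier results of these data known. Shown in every pool were the 28 members that were regulators, had the highest FPKM of their role, passed a test, or had one of the largest matched rises or falls at a time among genes of at least 50 counts on average. Protein sequences were not analysed here.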

Additional observations from a re-analysis of the deposited data

How the results depend on the processing

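The counts of called members depended on the tool and on single pools. At 24 hours no member was called lower under total count scaling or in both limma fits (pseudocounts of 1 and 0.1). The same held with scaling factors from the pools of the fit (chosen after seeing the data). No filter and DESeq2 called more members lower than the main edgeR fit, and also more genes in all. Leaving out a control gave 0 to 1. Among members higher at 32 weeks, where edgeR called 1, total count scaling gave 0, no filter 5, limma with a pseudocount of 1 gave 11 and DESeq2 26. Leaving out a control gave 0 to 12, with 12 without the 4-week control. DESeq2 also called 1 member higher at 4 weeks and 1 with an increasing difference over time. The cause of these changes was not tested. All other counts of called members were 0 in each setting run.

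The adjusted p of Dnah9 at 24 hours was 0.0767 under total count scaling, 0.235 and 0.148 in the limma fits and 0.0526 with scaling factors from the pools of the fit. The Foxj1 difference at 12 weeks from all controls changed sign in the limma fits (0.0064 and 0.026) and, when a control was left out, ranged from −0.46 to 0.080, the latter without the 4-week control. The adjusted p of Ccdc40 at 32 weeks was 0.0838 under total count scaling. Dnah3, Tppp3 and Spag6l at 32 weeks passed with no filter, with DESeq2 and without the 4-week control, and the latter 2 also with limma at a pseudocount of 1.

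Median matched differences kept their sign at each single time. They ranged from −0.63 to −0.51 at 24 hours, 0.46 to 0.56 at 1 week and 0.24 to 0.48 at 4 weeks. At 12 weeks they ranged from −0.42 to −0.39 and at 32 weeks from 0.94 to 1.32. Every setting compared the same pairs of pools, so the choice of control was not varied. Against all 5 controls the median at 1 week was −0.06 log2. The ratio of FPKM moved the median over all genes to 0.32 at 32 weeks and total count scaling to −0.15. Over the 5 times the members' median was 0.19 and ranged from −0.01 to 0.40 when one time was left out. With 1 pool for each time and treatment, no time has replicate pools. The test over the 5 times paired the pools of a time through its block, and without that block 0 members were called too. Low counts limit Dnah1, Dnah2, Dnah7a, Dnah7b and Dnah10.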

Other observations

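Regulators of multiciliation outside the 45 were looked at after the values of the list had been seen, and are given as values. Myb, a transcription factor gene active early in ciliated cell formation and also in blood precursors, measured 10.1, 8.27, 33.3, 10.02 and 39.4 CPM in the controls and 4.81, 14.9, 32.3, 18.1 and 28.2 CPM in the irradiated pools. Trp73, a regulator upstream of Foxj1, measured 3.14, 3.89, 11.1, 11.2 and 8.52 CPM and 1.84, 8.38, 12.1, 5.89 and 15.6 CPM. Rfx2, an X-box binding factor, measured 9.74, 12.2, 13.3, 7.98 and 17.1 CPM and 11.7, 20.6, 22.8, 8.83 and 29.4 CPM. Ccno, which acts in centriole amplification, measured 1.57, 0.730, 1.13, 0.255 and 1.11 CPM and 2.08, 1.84, 1.53, 1.47 and 1.39 CPM, and Deup1, a scaffold of centriole amplification, 1.16, 4.22, 3.47, 2.38 and 6.67 CPM and 1.76, 3.86, 6.52, 5.35 and 5.65 CPM. Ccno was higher than its matched control at all 5 times, as were 6.75% of all genes. Its highest pool was the 24-hour irradiated one. Counts of Ccno were low, at 2.77 to 19.3 in the controls and 18.1 to 25.9 in the irradiated pools. The matched difference of Deup1 was 0.55 at 24 hours and −0.23 at 32 weeks. Mcidas and Gmnc did not pass the filter on low counts. The 24-hour irradiated pool was below every control in Myb and Trp73 but not in Rfx2, and the 32-week irradiated pool was above every control in Trp73 and Rfx2 but not in Myb.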
